A study of Homo sapiens with 9 samples.

Results

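The transcripts of 9 genes that write, read, maintain or remove DNA methylation were followed across a set of RNA-seq libraries from TC-32, an established human cell line of Ewing sarcoma, the tumour driven by the EWSR1::FLI1 fusion. The genes were taken by symbol, DNMT1, DNMT3A, DNMT3B, TET1, TET2, TET3, UHRF1, MBD2 and TDG, and all 9 were found among the 58381 rows of both deposited tables and among the 17235 genes that passed the filter on low counts. The question of the study was which genes respond to ETS1, a transcription factor, in cells that keep the fusion. All 3 groups carried a lentiviral pLOC vector: RFP cells carried it with a red fluorescent protein, and ETS1-Low and ETS1-High cells carried a synthetic ETS1 cDNA expressed at a lower level and at a level set to match that of fusion-depleted cells. Each group had 3 libraries. Transduced cells had been selected with puromycin and sorted as single cells, and the ETS1 lines were clones. How many clones stand behind each group, and whether the replicates were separate cultures, is not given, so p-values measure the spread between these libraries, and a difference between groups cannot be told apart from one between clones.

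DNA methylation in vertebrates sits mostly on cytosines of CpG pairs. DNMT3A and DNMT3B place it on unmethylated DNA, while DNMT1 copies it onto the new strand after replication, guided by UHRF1, which binds CpG sites methylated on a single strand. TET1, TET2 and TET3 oxidise methylcytosine stepwise, TDG cuts out the last oxidation products so that base excision repair can restore cytosine, and MBD2 binds methylated CpG and brings the NuRD repressor complex to it. These libraries measure the transcripts of these genes and not methylation itself.

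The libraries held between 39484704 and 46654734 expected counts each. ETS1 itself, the introduced gene, had 2.00 ± 0.17 CPM (read counts scaled to library size, with TMM normalisation) in RFP, 10.6 ± 0.30 with ETS1-Low and 19.1 ± 0.81 with ETS1-High (SD, n = 3), in the order of the labels and without overlap. The 8 Ewing sarcoma markers examined were all detected, with summed levels of 1019.8 to 1041 FPKM in RFP, 1348 to 1364 FPKM in ETS1-Low and 1396 to 1408 FPKM in ETS1-High. Summed markers of blood cells (4 genes), epithelium, endothelium and muscle (3 genes each) reached at most 1.14, 1.43, 1.98 and 0.64 FPKM in any library, and the T cell gene CD3E was listed at 0 throughout. Most genes differed between the groups: 74.2% of those tested were called in ETS1-High against RFP, 74.1% in ETS1-Low against RFP and 59.2% in ETS1-High against ETS1-Low, where called means an adjusted p under 0.05 in the edgeR quasi-likelihood test.

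Sequences at transcription starts are shown where letters searched for were found, and for a pair of genes that start at the annotated 5′ end. RefSeq on GRCh38.p14 gave 20 windows for the 9 genes, each from 250 bases before a transcription start to 50 after it. The 1 window of DNMT3B, chr20:32779602-32779901, lies inside the gene as GENCODE gives it. So do the DNMT1 window and every UHRF1 window. The sequences at the annotated 5′ ends of DNMT3B, DNMT1 and UHRF1 were therefore not searched. The high-affinity ETS letters CCGGAAGT, on either strand, occurred in 0 of the 20 windows, against 4.14% of all 35116 windows. The letters TTTNNCGC, which cover E2F sites of S phase genes, searched on both strands, occurred in 3 of the 20, namely the DNMT1 window and a pair of UHRF1 windows, against 6.89% of all windows. GGAA repeated 3 times in a row occurred in none of the 20 and in 0.0854% of all. Windows of a gene can overlap, as some of DNMT3A do, so shares by gene are given too. Of all genes, 4.95% held the ETS letters, 8.23% the E2F letters and 0.0952% the repeat. Among the 9, only DNMT1 and UHRF1 held any of them. A match describes the letters and is not a bound site. The 30 bases around each E2F match follow, 5′ to 3′ on the gene's strand, with the match in capitals. They lie at chr19:10194937-10194966 (DNMT1, minus strand, over the start site) and at chr19:4909378-4909407, chr19:4909476-4909505 and chr19:4909973-4910002 (UHRF1, plus strand).
DNMT1: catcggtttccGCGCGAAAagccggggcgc
UHRF1 upstream: cccccaccctcTTTCTCGCttcccgccact
UHRF1 near the start site: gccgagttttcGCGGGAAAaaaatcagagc
UHRF1 before another start: cccgagcccgaTTTCGCGCgccctgagttc

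TET3 and MBD2, which moved in opposite directions below, are shown from 150 bases before the start to 20 after it, with the minimal ETS core GGAA (or TTCC on the other strand) in capitals. This core is common, since 95.5% of all windows hold at least 1, with a median of 3. The TET3 window held 1 and the MBD2 window 2, of which 1 falls within the stretch printed. The stretches are rich in CpG, with 28 CpG in TET3 (chr2:73984760-73984929, plus strand) and 21 in MBD2 (chr18:54224650-54224819, minus strand).
TET3: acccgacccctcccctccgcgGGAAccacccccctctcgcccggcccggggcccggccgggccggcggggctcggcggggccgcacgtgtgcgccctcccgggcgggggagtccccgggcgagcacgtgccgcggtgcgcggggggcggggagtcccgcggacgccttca
MBD2: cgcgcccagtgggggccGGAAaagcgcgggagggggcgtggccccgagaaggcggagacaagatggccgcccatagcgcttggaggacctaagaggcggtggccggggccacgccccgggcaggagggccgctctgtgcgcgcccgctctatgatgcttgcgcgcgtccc

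In ETS1-High against RFP, 8 of the 9 genes were called: DNMT1, DNMT3A, UHRF1 and MBD2 were higher, and DNMT3B, TET2, TET3 and TDG lower. Among all tested genes, 37% were called higher and 37.2% lower. In ETS1-Low against RFP, 7 of the 9 were called: DNMT1, TET1 and MBD2 were higher, and DNMT3B, TET2, TET3 and TDG lower, beside 37.9% and 36.2% of all genes. In ETS1-High against ETS1-Low, all 9 were called, 4 higher and 5 lower, beside 29.9% and 29.3%. In such bulk libraries, a lower level in every cell and fewer cells with the transcript cannot be told apart. A change of at least 1.5-fold was reached by 4 genes in ETS1-High against RFP (DNMT3B, TET3, TDG and MBD2), by TET2 alone in ETS1-Low against RFP and by DNMT3B alone in ETS1-High against ETS1-Low. The share of all tested genes that did so was 34.2%, 34.1% and 17.9%. The median log2 fold change of the 9 genes was 0.07, -0.01 and -0.12 in the 3 comparisons, beside -0.01, 0.01 and -4.7e-05 for all genes. Both comparisons against RFP use the same RFP libraries.

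**Figure D1:**
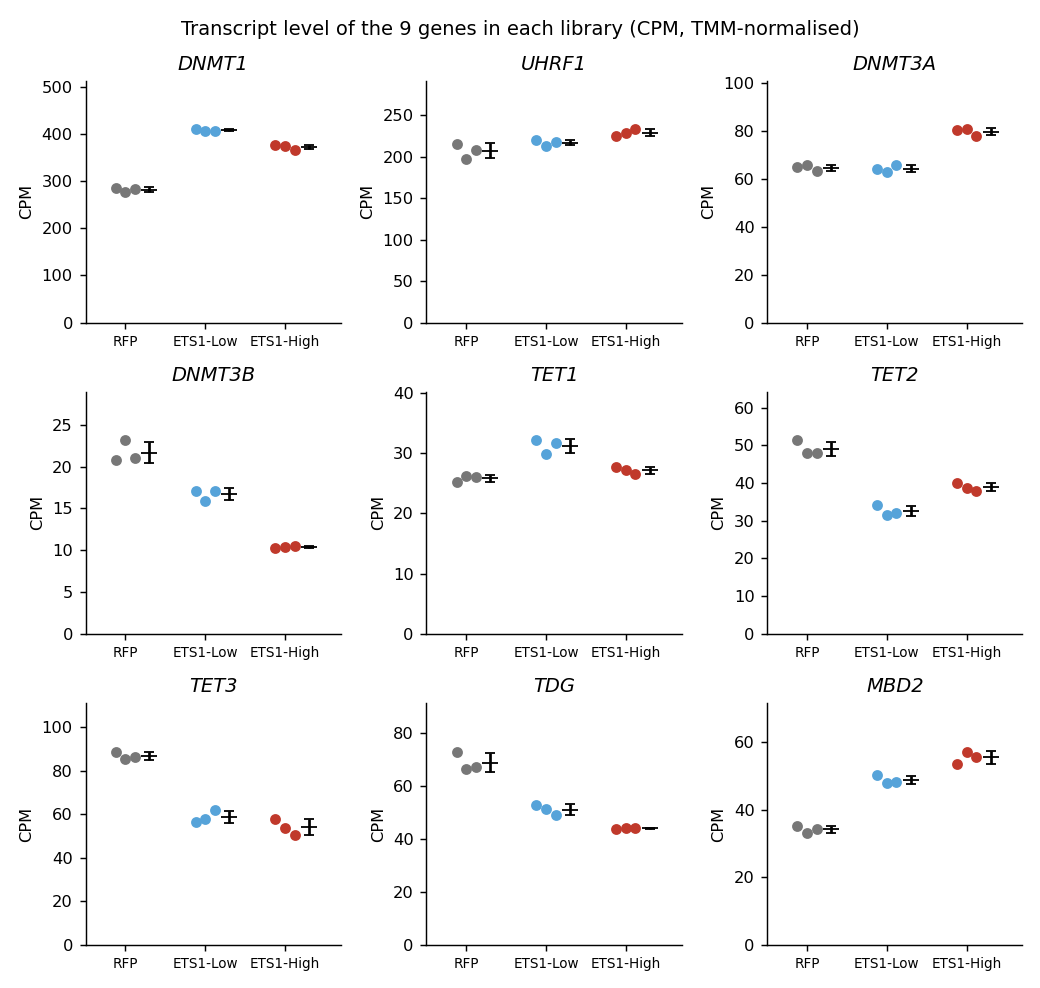
Transcript level in CPM (linear axis from 0) of each of the 9 genes in every library. Points are the 3 libraries of a group, and the black mark beside them is their mean with its SD; DNMT3B and TDG step down from RFP to ETS1-Low to ETS1-High, MBD2 steps up, and DNMT1 is higher in both ETS1 groups than in RFP.

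DNMT1, the maintenance methyltransferase, was the most abundant of the 9 per length, at 112.6 to 152.6 FPKM (fragments scaled to transcript length and library size) over all libraries. It had 286, 277 and 284 CPM in the RFP libraries, 411, 408 and 407 in those of ETS1-Low and 377, 375 and 367 in those of ETS1-High. The groups did not overlap, with ETS1-Low highest and ETS1-High between it and RFP. The log2 fold change was 0.40 (SE 0.03; edgeR adjusted p = 7.73e-18) in ETS1-High against RFP. That of ETS1-Low against RFP was 0.53 (SE 0.03; edgeR adjusted p = 1.28e-22), and ETS1-High was below ETS1-Low by -0.13 (SE 0.03; edgeR adjusted p = 8.18e-05). The gene lies on chromosome 19, from 10133342 to 10231286, minus strand, where exons of S1PR2 overlap it by 83 bases on the same strand.

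Neighbouring genes on the chromosome moved as well, and their level is given beside each gene as the median log2 fold change of expressed genes within 10 Mb on either side. The part of such regional shifts in a gene's own change was not tested. Around DNMT1, 400 genes had medians of 0.26 (ETS1-High) and 0.29 (ETS1-Low) against RFP, and subtracting them left 0.14 and 0.24.

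UHRF1, the reader that brings DNMT1 to replicated DNA, differed little. It had 216, 198 and 209 CPM in the RFP libraries, 219.6, 213 and 218 in those of ETS1-Low and 225, 229 and 233 in those of ETS1-High. RFP and ETS1-Low overlapped, and the ETS1-High libraries lay above both other groups. The log2 fold change in ETS1-High against RFP was 0.14 (SE 0.03; edgeR adjusted p = 5.42e-05). ETS1-Low against RFP gave 0.07 (SE 0.03; edgeR adjusted p = 0.0517), which was under 0.05 in 6 of 19 other settings. ETS1-High against ETS1-Low gave 0.08 (SE 0.03; edgeR adjusted p = 0.0299), and this call was lost without ETS1-Low replicate 2 (0.126) or 3 (0.0564) and without ETS1-High replicate 2 (0.0559) or 3 (0.121), as edgeR adjusted p. The 307 neighbours on chromosome 19 (UHRF1 at 4903080 to 4962154, plus strand) had medians of 0.23 (ETS1-High) and 0.30 (ETS1-Low) against RFP, above the gene's own changes. The expected counts of UHRF1 were not whole numbers in any library, so some of its reads were split between genes, which makes its level uncertain. The FPKM ratio of DNMT1 to UHRF1, which no library scaling can change, was 1.90 ± 0.09 in RFP, 2.60 ± 0.11 in ETS1-Low and 2.14 ± 0.09 in ETS1-High (SD, n = 3), without overlap between groups.

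Of the de novo methyltransferases, DNMT3B fell in both ETS1 groups, and its fall in ETS1-High was the largest change among the 9 genes. Its levels were 20.9, 23.1 and 21.1 CPM in the RFP libraries, 17.1, 15.9 and 17.1 in those of ETS1-Low and 10.3, 10.3 and 10.5 in those of ETS1-High. No group overlapped another, and the ETS1-High libraries had an SD of 0.13 CPM. The log2 fold change was -1.06 (SE 0.06; edgeR adjusted p = 1.3e-21) in ETS1-High against RFP. That of ETS1-Low against RFP was -0.38 (SE 0.06; edgeR adjusted p = 7.28e-08), and that between the ETS1 groups -0.68 (SE 0.06; edgeR adjusted p = 1.2e-13). The 100 neighbours on chromosome 20 (DNMT3B at 32762385 to 32809359, plus strand) had medians of -0.08 and -0.06 against RFP, and -0.98 and -0.32 remained without them.

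DNMT3A, the other de novo enzyme, rose in ETS1-High, and its step from ETS1-Low was itself called. It had 64.8, 65.7 and 63.4 CPM in the RFP libraries, 64.0, 62.9 and 65.7 in those of ETS1-Low and 80.5, 80.7 and 78.0 in those of ETS1-High. RFP and ETS1-Low overlapped, and all ETS1-High libraries lay above them. The log2 fold change was 0.30 (SE 0.03; edgeR adjusted p = 1.16e-11) in ETS1-High against RFP and 0.31 (SE 0.03; edgeR adjusted p = 1.41e-11) in ETS1-High against ETS1-Low. That of ETS1-Low against RFP was -0.01 (SE 0.03; edgeR adjusted p = 0.81). On the FPKM scale the picture shifted: limma on log2(FPKM + 1) gave 0.06 (adjusted p = 0.331) in ETS1-High against RFP and -0.22 (adjusted p = 0.00331) in ETS1-Low, while the step between the ETS1 groups was called in each of the 19 alternative settings, at 0.28 to 0.33. The 89 neighbours on chromosome 2 (DNMT3A at 25227855 to 25342590, minus strand) had medians of 0.35 (ETS1-High) and 0.39 (ETS1-Low) against RFP but 0.02 between the ETS1 groups. Less these medians, DNMT3A stood at -0.05 and -0.40.

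The balance between both de novo genes differed by group. The FPKM ratio of DNMT3A to DNMT3B was 3.34, 2.73 and 2.76 in RFP, 3.66, 3.65 and 3.63 in ETS1-Low and 6.92, 7.23 and 7.01 in ETS1-High. The groups did not overlap, and ETS1-High stood well apart from both others.

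The oxidising enzymes fell, with the exception of TET1. TET3 was the most abundant TET transcript per length in each group, and it fell in both ETS1 groups. Its levels were 88.7, 85.3 and 86.3 CPM in the RFP libraries, 56.2, 57.8 and 61.9 in those of ETS1-Low and 57.7, 53.7 and 50.4 in those of ETS1-High. RFP lay above all other libraries, and both ETS1 groups overlapped. Relative to RFP, the log2 fold change of ETS1-High was -0.69 (SE 0.04; edgeR adjusted p = 1.37e-17) and that of ETS1-Low -0.57 (SE 0.04; edgeR adjusted p = 3.13e-15). ETS1-High against ETS1-Low gave -0.12 (SE 0.04; edgeR adjusted p = 0.0106), a call lost without ETS1-Low replicate 3 (edgeR adjusted p = 0.12) or ETS1-High replicate 3 (edgeR adjusted p = 0.144) and on the FPKM scale. The 84 neighbours on chromosome 2 (TET3 at 73984910 to 74108176, plus strand) went the other way, with medians of 0.32 and 0.29 against RFP, and relative to them TET3 stood at -1.01 and -0.86. An unnamed long noncoding RNA gene shares 390 exonic bases with TET3 on its strand.

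TET2 was lowest in ETS1-Low. It had 51.3, 47.9 and 48.0 CPM in the RFP libraries, 34.1, 31.6 and 32.0 in those of ETS1-Low and 40.1, 38.8 and 37.8 in those of ETS1-High, and no group overlapped another. Relative to RFP, the log2 fold change of ETS1-High was -0.34 (SE 0.04; edgeR adjusted p = 1.4e-10) and that of ETS1-Low -0.59 (SE 0.04; edgeR adjusted p = 1.98e-18). Between the ETS1 groups it was 0.26 (SE 0.04; edgeR adjusted p = 6.44e-07). The 48 neighbours on chromosome 4 (TET2 at 105145875 to 105279816, plus strand) were lower too, with medians of -0.39 and -0.41 against RFP, so that TET2 stood at 0.05 relative to them in ETS1-High and at -0.18 in ETS1-Low.

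TET1 was highest in ETS1-Low, with 25.2, 26.2 and 26.0 CPM in the RFP libraries, 32.1, 29.9 and 31.7 in those of ETS1-Low and 27.7, 27.2 and 26.5 in those of ETS1-High. In CPM the groups did not overlap. RFP and ETS1-High differed by 0.07 on the log2 scale (SE 0.04, edgeR adjusted p = 0.143), which did not pass the test in any of 19 alternative settings. In FPKM these groups overlapped, at 2.89 to 3.07 in RFP and 2.87 to 3.00 in ETS1-High. ETS1-Low against RFP gave 0.27 (SE 0.04; edgeR adjusted p = 3.22e-07), and ETS1-High against ETS1-Low -0.20 (SE 0.04; edgeR adjusted p = 0.000114). Both calls were lost on the FPKM scale, where limma on log2(FPKM + 1) gave 0.11 (adjusted p = 0.0937) and -0.13 (adjusted p = 0.0616). The 83 neighbours on chromosome 10 (TET1 at 68560337 to 68694487, plus strand) had medians of 0.35 in ETS1-Low against RFP and -0.31 in ETS1-High against ETS1-Low, at least as large as the changes of TET1.

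**Figure D2:**
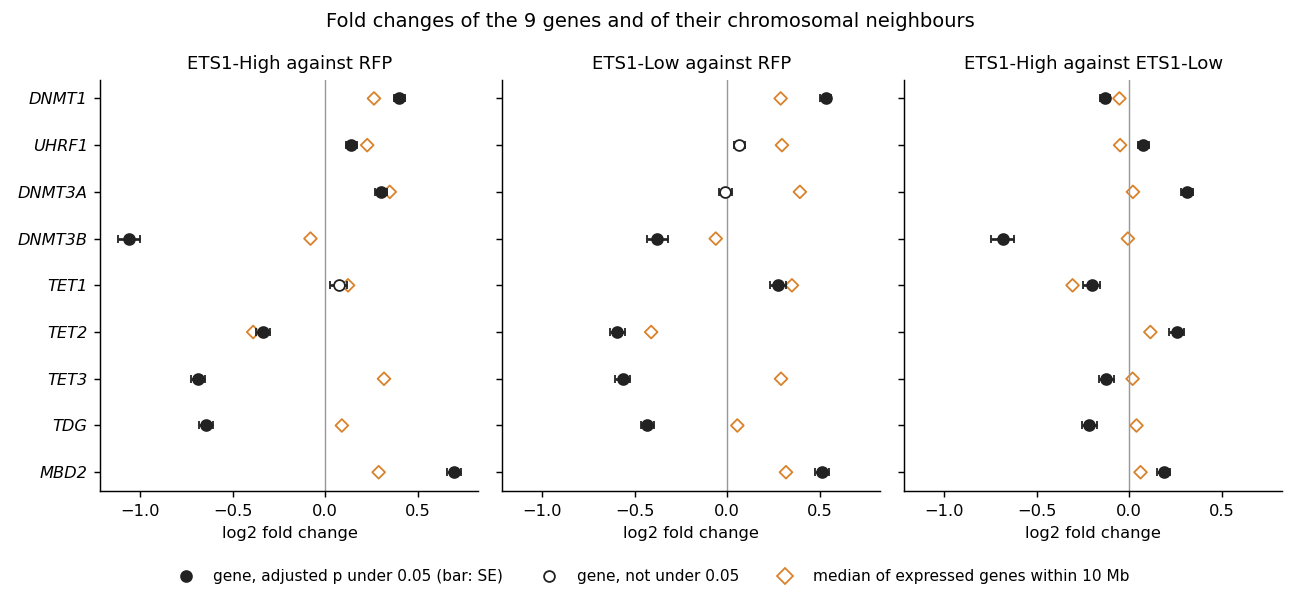
Log2 fold change of each gene in the 3 comparisons (circles, filled where the adjusted p is under 0.05, bars are the SE) beside the median of expressed genes within 10 Mb (open diamonds). TET3, DNMT3B and TDG lie farthest from their neighbours in ETS1-High against RFP, and TET3, TDG and DNMT3A in ETS1-Low against RFP. Against RFP, TET1 lies close to its neighbours in both ETS1 groups, and TET2, DNMT3A and UHRF1 do in ETS1-High.

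Set side by side per length, the TET genes changed in total and in composition. Their summed FPKM was 17.2, 17.0 and 16.7 in RFP, 11.7, 11.7 and 12.1 in ETS1-Low and 12.3, 11.6 and 11.3 in ETS1-High. All RFP libraries lay above all others, and both ETS1 groups overlapped. TET1 made up 17.6% ± 0.69 of the sum in RFP, 28.0% ± 0.86 in ETS1-Low and 24.9% ± 0.52 in ETS1-High (SD, n = 3). TET3 made up 49.1% ± 0.17, 43.2% ± 1.94 and 40.3% ± 0.94, and TET2 33.3% ± 0.78, 28.8% ± 1.42 and 34.8% ± 0.43. With 3 libraries against 3, the exact two-sided permutation test cannot go below p = 0.1, which 16 of the 18 share comparisons in both families reached (adjusted p = 0.1125).

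For the DNMT genes the summed FPKM was 137.8, 139.9 and 141 in RFP, 172, 171 and 165 in ETS1-Low and 158, 149.7 and 154 in ETS1-High, without overlap. DNMT1 made up 82.7% ± 1.06, 88.5% ± 0.54 and 86.1% ± 0.50 of it (SD, n = 3), and DNMT3B 4.39% ± 0.24, 2.48% ± 0.12 and 1.73% ± 0.03. The ratio of the DNMT sum to the TET sum was 8.03, 8.22 and 8.45 in RFP, 14.7, 14.7 and 13.7 in ETS1-Low and 12.8, 12.9 and 13.6 in ETS1-High. This sum is mostly DNMT1, whose own ratio to the TET sum was 6.81 ± 0.26 in RFP, 12.7 ± 0.57 in ETS1-Low and 11.2 ± 0.36 in ETS1-High (SD, n = 3). DNMT3B differed from it: its ratio to the TET sum was 0.34, 0.38 and 0.36 in RFP, 0.37, 0.35 and 0.36 in ETS1-Low and 0.22, 0.23 and 0.24 in ETS1-High. RFP and ETS1-Low overlapped for DNMT3B, and ETS1-High lay below both. Library scaling cannot change these ratios, though the transcript length that FPKM is scaled to can.

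**Figure D3:**
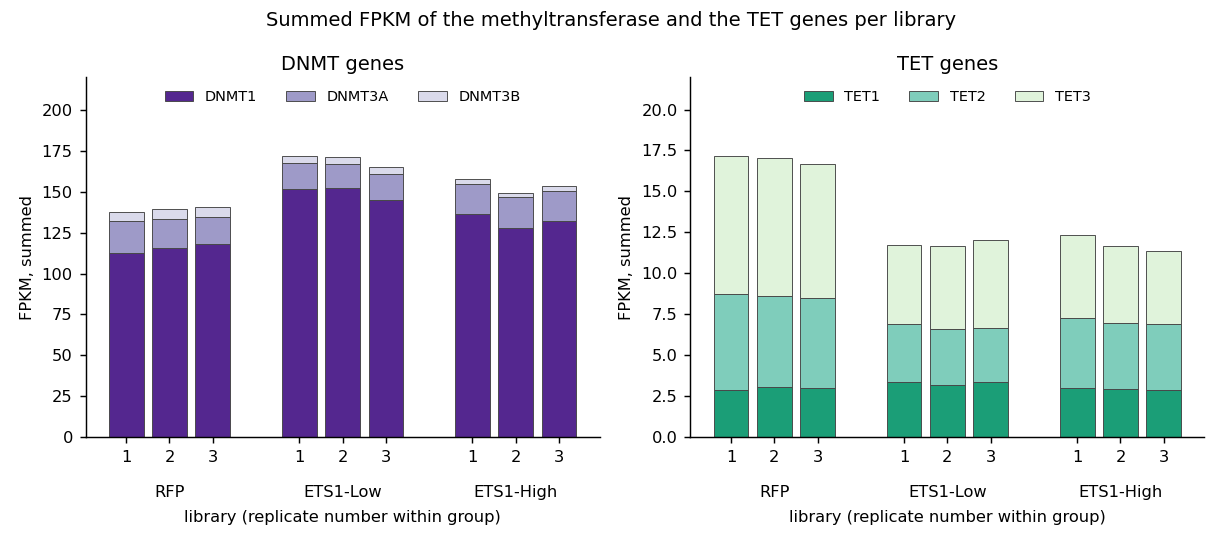
FPKM of DNMT1, DNMT3A and DNMT3B (left) and of TET1, TET2 and TET3 (right), stacked for each library on linear axes from 0. The DNMT sums of the ETS1 groups, at 149.7 to 172, lie above the RFP sums of 137.8 to 141, and the TET sums, at 11.3 to 12.3, lie below those of RFP, at 16.7 to 17.2.

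TDG, the glycosylase that completes TET-driven demethylation, fell in both ETS1 groups. It had 72.8, 66.3 and 66.9 CPM in the RFP libraries, 52.7, 51.4 and 48.8 in those of ETS1-Low and 43.7, 44.0 and 44.0 in those of ETS1-High, and no group overlapped another. Relative to RFP, the log2 fold change of ETS1-High was -0.65 (SE 0.04; edgeR adjusted p = 4.64e-21) and that of ETS1-Low -0.43 (SE 0.04; edgeR adjusted p = 9.5e-15). Between the ETS1 groups it was -0.21 (SE 0.04; edgeR adjusted p = 5.69e-06). Its 111 neighbours on chromosome 12 (TDG at 103965822 to 103988874, plus strand) had medians of 0.09 and 0.06 against RFP. A long noncoding RNA gene shares 168 exonic bases with it on the same strand.

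MBD2, the methyl-CpG reader, rose in both ETS1 groups. It had 35.3, 33.2 and 34.2 CPM in the RFP libraries, 50.3, 47.9 and 48.3 in those of ETS1-Low and 53.6, 57.2 and 55.8 in those of ETS1-High, and no group overlapped another. Relative to RFP, the log2 fold change of ETS1-High was 0.70 (SE 0.04; edgeR adjusted p = 3.85e-22) and that of ETS1-Low 0.51 (SE 0.04; edgeR adjusted p = 1.02e-16). Between the ETS1 groups it was 0.19 (SE 0.04; edgeR adjusted p = 2.95e-05). Its 62 neighbours on chromosome 18 (MBD2 at 54151606 to 54224669, minus strand) were higher as well, with medians of 0.29 and 0.32 against RFP, and 0.41 and 0.19 remained without them.

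The deposited FPKM values are centred differently from TMM-normalised counts: across genes they moved log2 fold changes by a median of -0.11 (ETS1-High) and -0.13 (ETS1-Low) in the comparisons with RFP. The scales also differ gene by gene. In ETS1-High against RFP, DNMT3A went from 0.30 to 0.06 and MBD2 from 0.70 to 0.42, while TDG stayed at -0.69 to -0.60 in all 19 settings. Within RFP, DNMT3A had 19.39, 17.85 and 16.74 FPKM at 64.8, 65.7 and 63.4 CPM. The source of these differences was not tested. With limma on log2(FPKM + 1), 2 of the 9 genes were called higher and 4 lower in ETS1-High against RFP, 2 higher and 5 lower in ETS1-Low against RFP, and 4 higher and 3 lower between the ETS1 groups. The rises of DNMT1 and MBD2 against RFP were smaller on that scale and still called, at 0.20 and 0.42 with ETS1-High and 0.38 and 0.20 with ETS1-Low. UHRF1 in ETS1-High against RFP was not called there (0.03; limma adjusted p = 0.448). With that rule, 29.5% of all 13401 genes were called higher and 42.1% lower in ETS1-High against RFP, 29.6% and 41.6% in ETS1-Low, and 29% and 26.1% between the ETS1 groups. Over all genes without a filter, that scale gave 4584 higher and 7339 lower calls in ETS1-High against RFP in place of 6372 and 6413, and 4306 and 7380 in ETS1-Low against RFP in place of 6537 and 6236.

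Genes whose levels followed those of the most variable of the 9 were looked up among 12400 abundant genes (mean count of 100 or more). DNMT3B was most like SESN2 (Pearson's r = 0.996), CCNG1 (0.995) and SEMA3F (0.994) over the 9 libraries. MBD2 was most like DCPS (0.999), WDR75 (0.999) and ANXA2 (0.998), and TET3 most like CMYA5 (0.997), TRIM71 (0.995) and NOTCH3 (0.994). These are descriptions of 3 groups of libraries, in which an r above 0.95 was shared by 489, 1370 and 670 genes.

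The other genes of the pathway were described from lists, to be read beside the shares of all tested genes called higher and lower, which were 37% and 37.2% in ETS1-High and 37.9% and 36.2% in ETS1-Low. Of 18 genes for methyl-CpG readers and the NuRD complex, 10 were called higher and 6 lower in ETS1-High against RFP and 11 and 6 in ETS1-Low. ZBTB38, a zinc finger reader of methylated CpG, rose from 2.27 ± 0.26 CPM with RFP to 5.57 ± 0.33 with ETS1-Low and 7.24 ± 0.62 with ETS1-High (SD, n = 3). CHD3, a NuRD remodeller, rose from 579 ± 20.9 to 708 ± 15.2 and 909 ± 17.4 CPM (SD, n = 3). CHD4, another NuRD remodeller, named after its values were seen, fell from 425 ± 14.2 to 344 ± 9.50 and 355 ± 10.4 CPM (SD, n = 3). The median log2 fold change of the list was 0.11 (ETS1-High) and 0.13 (ETS1-Low), beside -0.01 and 0.01 for all genes.

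Of 15 partners of maintenance and de novo methylation, 13 were tested, and 4 were called higher and 5 lower in ETS1-High against RFP, and 6 and 6 in ETS1-Low, with median log2 fold changes of -0.02 and -0.05. DNMT3L, the catalytically inactive cofactor of DNMT3A and DNMT3B, had 0 counts in every library, which allows up to 3 counts in each. LIG1, the replicative ligase, rose from 91.9 ± 2.59 CPM with RFP to 189 ± 2.72 with ETS1-Low and 173 ± 0.66 with ETS1-High, and CDCA7L rose from 48.6 ± 1.20 to 81.4 ± 0.82 and 111 ± 4.07 CPM (SD, n = 3). Neighbours of LIG1 had medians of 0.39 and 0.41 against RFP, below its own log2 fold changes of 0.91 and 1.04.

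DNMT1 and UHRF1 are transcribed with the cell cycle, so proliferation genes are given beside them. Of 17 S phase and proliferation genes, 9 were called higher and 6 lower in ETS1-High against RFP, and 13 higher and 3 lower in ETS1-Low, with median log2 fold changes of 0.24 and 0.22. Higher calls outnumbered lower ones in both groups, and more so in ETS1-Low. The 6 lower in ETS1-High were MCM3, MCM4, MCM7, CCNE2, CCNB1 and E2F1, with E2F1 the lowest at -0.38 (log2). The 3 lower in ETS1-Low were CCNE2, CCNB1 and E2F1. Among all tested genes, 37% were called higher and 37.2% lower in ETS1-High, and 37.9% and 36.2% in ETS1-Low. Their median log2 fold changes were -0.01 and 0.01. RRM2, a ribonucleotide reductase subunit, went from 209.6 ± 3.85 CPM in RFP to 491 ± 14.0 and 536 ± 4.93 CPM, and TYMS, thymidylate synthase, from 82.5 ± 2.92 to 199 ± 3.01 and 185 ± 4.99 CPM in ETS1-Low and ETS1-High (SD, n = 3). Neighbours of TYMS had medians of 0.73 (ETS1-High) and 0.70 (ETS1-Low) against RFP, where TYMS itself stood at 1.17 and 1.27. Those of RRM2 had 0.23 and 0.28, where RRM2 stood at 1.35 and 1.23. MKI67 and MCM2, named after their values were seen, were the 2 genes of the list not called in ETS1-High against RFP. They differed by -0.06 and 0.03 (log2) there, with edgeR adjusted p = 0.115 and 0.367. In ETS1-Low against RFP both were called higher, at 0.18 and 0.17 (edgeR adjusted p = 2.48e-06 and 1.21e-06). The part of these changes in those of DNMT1 and UHRF1 was not tested.

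Among cofactors and regulators of the TET enzymes, 3 of the 10 tested genes were called higher and 6 lower in ETS1-High against RFP, and 5 and 4 in ETS1-Low, with medians of -0.21 and 0.06. The largest falls in this list were those of CXXC4 and CXXC5, related CXXC domain proteins that bind unmethylated CpG and are known to restrain TET2. CXXC4 had 18.4, 19.1 and 16.8 CPM in RFP, 0.32, 0.42 and 0.34 CPM in ETS1-Low and only 1 to 3 counts per library in ETS1-High. Summed over libraries and scaled to library size, 6 counts in ETS1-High stood against 2603 in RFP, a ratio of 389 with an exact 95% interval of 179 to 1061 that covers counting error only. Its log2 fold change in ETS1-Low against RFP was -5.63 (SE 0.13). CXXC5 had 17.9, 19.1 and 19.6 CPM in the RFP libraries, 0.66, 0.69 and 0.93 in those of ETS1-Low and 1.65, 1.58 and 1.41 in those of ETS1-High, and its log2 fold changes were -3.61 (SE 0.10; ETS1-High) and -4.63 (SE 0.11; ETS1-Low). CXXC4 lies on chromosome 4 from 104468308 to 104494901, 650974 bases from TET2, in the same neighbourhood that was lower by medians of -0.39 and -0.41.

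In base excision repair after TDG, 4 of 13 tested genes were called higher and 7 lower in ETS1-High against RFP, and 5 and 5 in ETS1-Low, with medians of -0.12 and -0.13. GADD45G, a small adaptor linked to active demethylation, rose from 13.0 ± 0.51 CPM in RFP to 23.0 ± 0.43 and 33.8 ± 1.15 CPM, and the glycosylase NEIL3 went from 14.9 ± 0.45 to 27.6 ± 0.63 and 23.7 ± 0.30 CPM in ETS1-Low and ETS1-High (SD, n = 3). NEIL3's neighbours on chromosome 4 had medians of 0.77 (ETS1-High) and 0.69 (ETS1-Low). Related genes of this list, named after their values were seen, did not all rise. GADD45A fell from a mean of 51.9 CPM with RFP to 43.7 with ETS1-Low and 34.0 with ETS1-High. GADD45B was called higher with ETS1-High, at 0.21 (log2 against RFP). NEIL1 and NEIL2 were called lower with ETS1-High, at -0.21 and -0.44. With ETS1-Low, NEIL1 was called lower (-0.23) and NEIL2 higher (0.21). Of the genes for the methyl donor S-adenosylmethionine, 3 of 8 tested were called higher and 2 lower in ETS1-High against RFP, and 4 and 2 in ETS1-Low, with medians of -0.02 and 0.17. MAT2A, which makes the donor, went from 271 ± 7.32 CPM with RFP to 430.0 ± 16.0 with ETS1-Low and 380.1 ± 7.84 with ETS1-High, and MTRR, which reactivates methionine synthase, from 57.5 ± 1.80 to 40.3 ± 0.89 and 43.0 ± 0.63 CPM (SD, n = 3). Neighbours of MAT2A had medians of 0.46 and 0.42, where MAT2A itself stood at 0.49 and 0.67. Those of MTRR had medians of -0.28 and -0.36, where MTRR stood at -0.42 and -0.51.

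Germline genes that somatic cells keep silent by promoter methylation were read as well, since they are known to respond when methylation is lost. Of 18 such genes, 6 had 0 counts in every library and 9 more had at most 14 counts in any library, which was too few to test. None of the 3 tested genes was called higher in either ETS1 group against RFP, and 2 were called lower. TEX15 had 17.5, 19.2 and 17.6 CPM in the RFP libraries, 1.53, 1.71 and 1.29 in those of ETS1-Low and 0.38, 0.49 and 0.36 in those of ETS1-High. SOHLH2 had 3.82, 3.71 and 4.05 CPM in the RFP libraries, 1.60, 0.77 and 1.08 in those of ETS1-Low and 1.10, 1.09 and 0.92 in those of ETS1-High. The RFP libraries lay above all others in both genes, and TEX15 was not silent in RFP. The untested genes can show neither a rise nor its absence. As for UHRF1, the expected counts of SOHLH2 were not whole in any library, so its level is uncertain.

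The split of a list between higher and lower calls moved with the scale. With limma on log2(FPKM + 1), the readers had 6 higher and 7 lower calls in ETS1-High and 7 and 6 in ETS1-Low against RFP. On that scale the partners had 4 and 7 in ETS1-Low, the TET regulators 3 and 6 in ETS1-Low, and base excision repair 2 and 9 in ETS1-High and 4 and 7 in ETS1-Low. For the S phase genes it gave 9 and 7 in ETS1-High and 9 and 4 in ETS1-Low. That rule called 29.5% of all genes higher and 42.1% lower in ETS1-High, and 29.6% and 41.6% in ETS1-Low. Between the ETS1 groups, edgeR called 5 S phase genes higher and 11 lower, 2 repair genes higher and 8 lower, and 9 readers higher and 3 lower. On the FPKM scale these were 4 and 9, 2 and 6, and 9 and 3. With edgeR the partners had 4 and 5, the TET regulators 3 and 6, the methyl donor genes 3 and 4, and the germline genes 0 and 1. Of all tested genes, edgeR called 29.9% higher and 29.3% lower here, and the FPKM rule 29% and 26.1%.

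**Figure D4:**
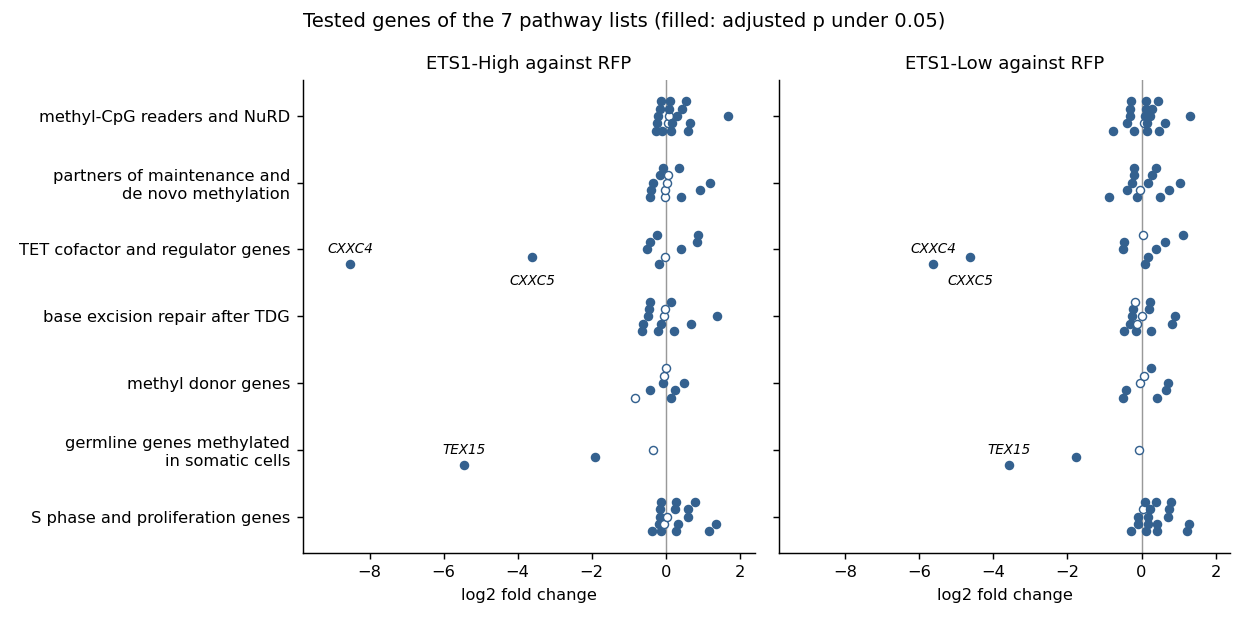
Log2 fold change of the tested genes of the 7 pathway lists in ETS1-High (left) and ETS1-Low (right) against the same RFP libraries, 1 point per gene, filled where the edgeR adjusted p is under 0.05. Most points lie within 1.5 of 0, and CXXC4, CXXC5 and TEX15 lie apart on the lower side; the point of CXXC4 in ETS1-High is a fitted value from at most 3 counts per library.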

How the data were processed

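The authors deposited RSEM expected counts and FPKM values per gene for 9 libraries, per the file headers and names. The submitters' processing notes list cutadapt 4.4, STAR 2.7.3, featureCounts, Subread 2.0.3, limma 3.38.3 and GRCh38, without roles; the annotation is not given in the sources used here. Expected counts, rounded to whole numbers, were tested in 1 fit of all libraries with edgeR 4.0.16 (TMM, filterByExpr, robust quasi-likelihood, R 4.3.3), with Benjamini-Hochberg adjustment over 17235 genes. The SE is the log2 fold change over the root of its F statistic. Alternatives were DESeq2 1.42.0 (its size factors and Wald test), limma-voom and limma 3.58.1 on log2(FPKM + a pseudocount), other filters, a replicate block, only the groups compared, and leaving out each library. Shares of summed FPKM were compared by exact permutation tests. The fit was tested on simulated data in which most genes were unchanged. Most were called here, so that test does not check the scaling of these libraries. Replicate libraries differed by 2.66 to 5.19 times sampling noise (chi-square per gene, genes with at least 50 counts), and each counted once. Named list genes are the 2 largest called changes per list in ETS1-High against RFP; likeness covers the 3 genes with the widest range. Members and lists were chosen with earlier results of these data known; the FPKM ratios, the GGAA count and the 10 Mb printout for list genes came after. Positions are GENCODE v44 on GRCh38. The labels name no molecular identifiers, so floors cover counting error only.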

Additional observations from a re-analysis of the deposited data

Results flagged for a closer look

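Each of the 9 genes is listed because its levels in the ETS1 groups differed in a direct edgeR test, which compares their effects relative to RFP. The log2 differences, ETS1-High against ETS1-Low, were -0.68 for DNMT3B, -0.21 for TDG, -0.20 for TET1, -0.13 for DNMT1 and -0.12 for TET3. They were 0.31 for DNMT3A, 0.26 for TET2, 0.19 for MBD2 and 0.077 for UHRF1. The call of UHRF1 was lost without any of 4 single libraries (edgeR adjusted p = 0.0559 to 0.126), and that of TET3, whose groups overlap, without either of 2 (edgeR adjusted p = 0.12 and 0.144). The calls of TET1 and TET3 were also lost on the FPKM scale. Of all tested genes, 59.2% were called in this comparison.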

How the results depend on the processing

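Of 513 recomputed log2 fold changes of the 9 genes under 19 settings with a test, 476 kept their direction and side of the threshold. The settings include fits without a library of the group not compared, which leave both compared groups intact and vary little. TET1 in ETS1-High against RFP, never called, became -0.023 with FPKM + 1 (with and without the filter) and -0.030 with FPKM + 0.1. UHRF1 in ETS1-Low against RFP became -0.072 with FPKM + 1 (both filters) and -0.073 with FPKM + 0.1. Leaving out libraries, DNMT3A in ETS1-Low ranged from -0.025 to 0.0089 (the latter without ETS1-Low replicate 2) and SOHLH2 between the ETS1 groups from -0.36 to 0.16 (the latter without ETS1-Low replicate 1); neither was called. Less the median of genes within 10 Mb, the sign turned for DNMT3A (-0.046), TET2 (0.053) and UHRF1 (-0.085) in ETS1-High, TET1 in ETS1-Low (-0.076) and TET1 between the ETS1 groups (0.10); the cause was not tested. With a change of at least 1.5-fold required, 4, 1 and 1 of the 9 genes were called, by construction fewer. Leaving out libraries gave 8 calls throughout in ETS1-High, 7 to 8 in ETS1-Low and 7 to 9 between the ETS1 groups. Replicate numbers showed no pairing (correlations of deviations -0.03 to 0.03; 3 of 9 libraries correlated best with their own number). With the replicate block, 8, 8 and 9 genes were called; UHRF1 in ETS1-Low passed (edgeR adjusted p = 0.0471), and 12701, 12729 and 10122 of all genes were called against 12785, 12773 and 10196.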

Other observations

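The genes here were named after their values were seen. UHRF2 and ZBTB33 were lowest in ETS1-Low. UHRF2, the paralogue of UHRF1, had 98.8, 101 and 97.3 CPM in the RFP libraries, 50.6, 56.3 and 52.9 in those of ETS1-Low and 77.4, 72.8 and 75.9 in those of ETS1-High, and its neighbours on chromosome 9 stood at a median of -0.43 (log2, ETS1-Low against RFP), beside -0.89 for UHRF2. ZBTB33, a zinc finger reader of methylated CpG, had a log2 fold change of -0.78 in ETS1-Low relative to RFP, where its neighbours stood at a median of -0.51. AHCY, which clears the by-product of methyl transfer, was highest in ETS1-Low, at 659 ± 8.45 CPM against 402 ± 7.76 with RFP and 482 ± 6.08 with ETS1-High (SD, n = 3), while its neighbours stood at a median of -0.058 (log2); its expected counts were not whole in any library, so its level is uncertain. OGT, the glycosyltransferase that binds TET proteins, was at 346 ± 19.0 CPM with RFP, 244 ± 9.55 with ETS1-Low and 243 ± 7.87 with ETS1-High (SD, n = 3), with neighbours at -0.039 and -0.012 (log2) in these comparisons.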
